A study of Mus musculus with 4 samples.

Results

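Enteroendocrine cells are the scattered hormone-making cells of the gut epithelium. In the acid-secreting stomach they include X/A-like cells that make ghrelin, enterochromaffin-like cells that make histamine, D cells that make somatostatin and a smaller number of serotonin-making enterochromaffin cells. Their hormones are stored in dense-core granules with the granins, are cut from longer precursors by prohormone convertases and are released on demand, while a cascade of transcription factors that starts with Neurog3 in many of these cells sets their fate. The 10 genes described here were chosen by name, for what their products do. They are the granins Chga and Chgb, the hormone gene Ghrl and its acyltransferase Mboat4, the serotonin-synthesis gene Tph1, the convertase gene Pcsk1 and the transcription factor genes Neurod1, Neurog3, Nkx2-2 and Pax6. They are 10 of the 46095 gene rows of the count table, and 10 of 10 passed the filter on low counts, as did 17643 rows in all.

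Gastric RNA of WT mice and Atp4b-cre; MycOE mice, 12 weeks old and all on a C57BL/6 background, was sequenced in bulk, with 2 samples per genotype. In Atp4b-cre; MycOE mice (Atp4b-cre; Myc fl/+), here called c-Myc transgenic mice, Cre is driven by the Atp4b promoter, which is active in parietal cells and their lineage, and turns on a transgene that encodes human c-Myc. The WT mice were Myc fl/fl mice, which carry the silent transgene without Cre. Whether Cre was active in enteroendocrine cells was not tested here.

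The libraries held 30260305 to 41463647 counts. The names and counts of the deposited table are out of register: in the order of the table the mean log2(count + 1) of the 2 genotypes correlated across genes at r = 0.524, against 0.986 between the WT samples. When the counts of both c-Myc transgenic columns were assigned in row order to the names sorted by character code, r between the genotypes was 0.985 (genes are not independent replicates). Around each of the 10 genes, the shift of the c-Myc transgenic counts that matched WT best over the 61 surrounding rows was the one this re-sorting makes, in 10 of 10 cases. Values below are from the re-sorted table, and the deposited table gives other values, with 5 of the 10 genes in the opposite direction. The mouse Myc row itself had 1062 and 759 counts in the WT samples and 735 and 1091 in c-Myc transgenic mice after re-sorting, against 4920 and 6600 transgenic counts under that name in the deposited order. The rows carry mouse gene names and none stands for the transgene, so neither set of counts checks the genotype. Atp4b, the marker of the targeted lineage, had 87583 and 69469 counts in the WT samples and 1301 and 2310 in c-Myc transgenic mice. WT replicate 2 had 17846 counts of Xist and 5 of the Y-linked gene Ddx3y, against 85 to 201 and 1861 to 2623 in the other 3 samples, so in WT sex and replicate cannot be told apart.

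Endocrine markers outside the 10 genes were looked at first. Insm1 and Syp, of which Syp is also neuronal, were detected in all 4 samples with at least 55 counts each, and Sst, a hormone gene of the acid-secreting stomach, with at least 1082. Of the defining genes of pancreatic islets, Ins1, Ins2 and G6pc2 had 0 counts in all 4 samples, so a count of 0 allows up to 3 counts of each per library (counting error only).

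The promoters of 5 of the genes are shown first as sequence context, 4 that share an element and 1 without it, and a relation of the element to the fold changes was not tested. RefSeq promoter sequences on GRCm38.p6 matched 9 of the 10 genes, all but Mboat4, with 14 promoters in all since some genes have several start sites. In the 250 bases before the start sites, the cyclic AMP response element, bound by CREB-family factors and known from neuroendocrine genes, was found in 4 of the 14 promoters, of 4 different genes, in its full form TGACGTCA or in the form TGACGTAA (both strands searched). One or the other form was present in 1.98% of the 32851 promoters in the table, the full form in 1.55% and the other in 0.447%. This element was added to the search after the sequences had been read, so the count of 4 is a description. The printed stretches end at or before the base ahead of the start site, run 5′ to 3′ on the gene's strand, and show the element in capitals. Bases that GENCODE M21 places in an exon of the gene were left out, except around the element of Chgb, which lies in an annotated exon upstream of the RefSeq start site.

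Chga, chr12:102554821-102554940, plus strand: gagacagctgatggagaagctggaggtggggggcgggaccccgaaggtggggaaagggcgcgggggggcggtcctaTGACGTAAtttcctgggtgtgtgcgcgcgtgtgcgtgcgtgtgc
Chgb, chr2:132781559-132781588, plus strand: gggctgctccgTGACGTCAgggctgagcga
Pcsk1, chr13:75089737-75089825, plus strand: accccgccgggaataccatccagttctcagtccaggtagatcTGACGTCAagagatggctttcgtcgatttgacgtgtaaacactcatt
Pax6, chr2:105668776-105668895, plus strand: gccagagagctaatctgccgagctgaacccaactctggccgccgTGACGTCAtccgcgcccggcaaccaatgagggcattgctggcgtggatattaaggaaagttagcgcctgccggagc
Ghrl, chr6:113719912-113720031, minus strand: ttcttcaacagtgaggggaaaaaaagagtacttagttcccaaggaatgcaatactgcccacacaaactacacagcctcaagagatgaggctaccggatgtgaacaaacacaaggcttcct

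The element lay at bases -44 to -37 from the start site in Chga, -72 to -65 in Chgb, -78 to -71 in Pcsk1 and -76 to -69 in Pax6. Ghrl is shown beside them as an abundant gene with neither form in its windows, and was picked with its values known. The log2 fold changes of the 4 genes with the element ran from -2.33 to -1.55, and among the 5 matched genes without it Ghrl stood at -1.94, Tph1 at -1.28, Neurod1 at -1.19, Nkx2-2 at -1.01 and Neurog3 at -0.76, so the value of Ghrl lay inside the range of the genes with the element. CACGTG, the E-box that MYC and MAX bind, reads the same on both strands and was found in Nkx2-2 alone among the 9 genes, at bases -173 to -168, and in 6.02% of all promoters. The E-box CAGATG, which NEUROD1 binds and which reads CATCTG on the opposite strand, was likewise found in Nkx2-2 alone, at -220 to -215, and in 14.4% of all promoters. A match is not evidence of binding, and a missing match says only that these letters are not in this window.

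All 10 genes had lower normalised levels in both c-Myc transgenic samples than in both WT samples, and 5 of them passed the test. Chga, Chgb, Ghrl, Tph1 and Pcsk1 fell, by 2.44-fold to 5.01-fold, and 0 of the 10 genes rose, whether by edgeR's quasi-likelihood test, at an unadjusted p under 0.05 or by DESeq2. Mboat4 and the 4 transcription factor genes did not pass. A gene was called at a Benjamini-Hochberg adjusted p under 0.05 in edgeR's quasi-likelihood test and a change of over 1.5-fold. Of all 17643 tested genes, 5.08% were called lower and 5.65% higher under this rule, 31.5% had both transgenic samples below both WT samples, and 16.4% were lower and 17.7% higher with an unadjusted p under 0.05, where 9 of the 10 genes were lower. DESeq2 called 8 of the 10 genes lower, and of the 18755 genes to which it gave an adjusted p it called 9.21% lower and 7.98% higher. The median log2 fold change of the 10 genes was -1.64, against 0.012 for all tested genes. Summed over the 10 genes, normalised CPM (counts scaled to a library size corrected by the trimmed mean of M values) were 1828 and 1180 in the WT samples and 407 and 394 in the c-Myc transgenic samples. In bulk RNA, fewer endocrine cells and less RNA per endocrine cell cannot be told apart.

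**Figure D1:**
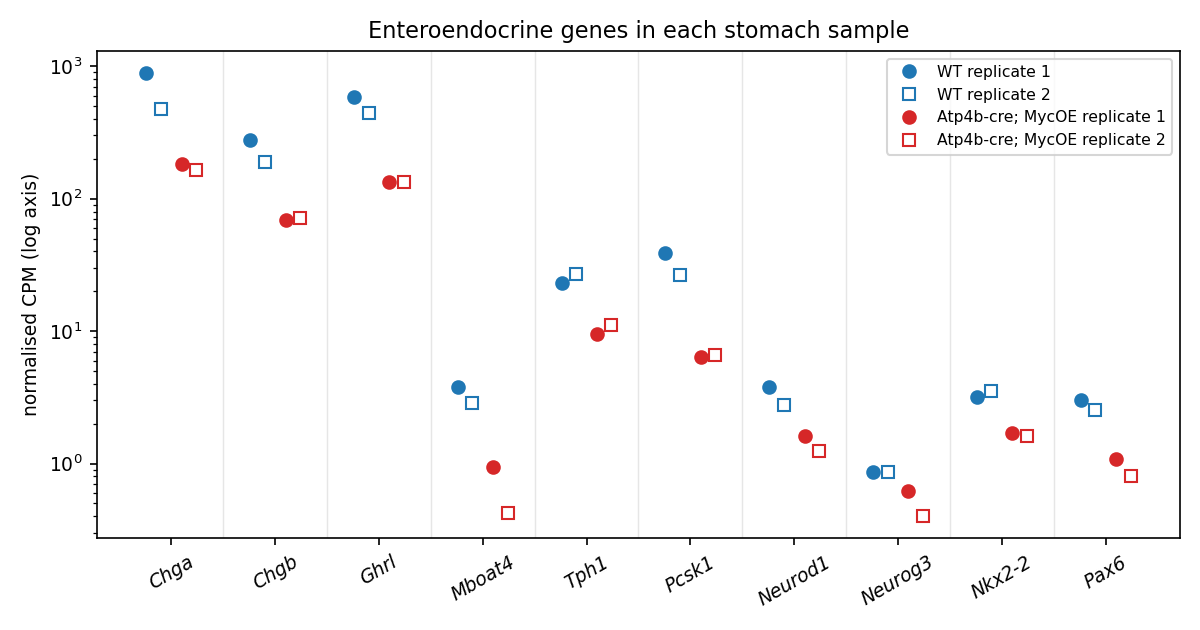
Normalised CPM on a log axis for each of the 10 genes (horizontal axis) in the 4 stomach samples, with WT in blue and Atp4b-cre; MycOE in red, circles for replicate 1 and open squares for replicate 2. For each gene both red points lie below both blue points, and Chga shows the widest gap between WT replicates among the abundant genes, at 890 against 479 CPM.

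The WT levels differed between genes by several orders of magnitude. Compared per kilobase of annotated exon, Ghrl was first in WT with 477 ± 90.9 CPM per kb (SD, n = 2), followed by Chga with 248 ± 106 and Chgb with 85.0 ± 22.5. Pcsk1 came next with 5.84 ± 1.52 CPM per kb and Tph1 with 4.05 ± 0.405. Mboat4 stood at 1.82 ± 0.365 CPM per kb, and Neurod1 at 1.20 ± 0.273 and Nkx2-2 at 1.17 ± 0.0798 overlapped each other. Neurog3 at 0.515 ± 0.00163 and Pax6 at 0.237 ± 0.0281 CPM per kb were lowest. No other neighbours in this order overlapped between their WT samples. In c-Myc transgenic mice the first 3 genes kept this order, with 124 ± 0.501, 63.1 ± 4.22 and 25.7 ± 0.897 CPM per kb. Below them the order differed: Tph1 (1.66 ± 0.183) lay above Pcsk1 (1.16 ± 0.0317) without overlap, and Mboat4 (0.373 ± 0.200) stood below Nkx2-2 (0.578 ± 0.0242) without overlap and below the mean of Neurod1 (0.527 ± 0.0953) with overlap.

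Chromogranin A and chromogranin B are acidic granule proteins that bind calcium and hormones and help dense-core granules to form. Chga (GENCODE M21 on GRCm38, chr12:102554969-102565028, plus strand) had 29872 and 13351 counts in the WT samples and 6179 and 7403 in the c-Myc transgenic samples. The WT samples differed from each other by 1.86-fold after normalisation, more than for any other of the 10 genes, and both still lay above both transgenic samples. Normalised levels were 684 ± 291 CPM in WT and 174 ± 11.6 CPM in c-Myc transgenic mice (SD, n = 2), and Chga fell by 1.98 on the log2 scale (SE 0.33, adjusted p = 0.0356 in edgeR's quasi-likelihood test). Chgb (chr2:132781278-132795079, plus strand) had 9279 and 5286 counts in the WT samples and 2327 and 3220 in c-Myc transgenic mice. It went from 233 ± 61.5 to 70.3 ± 2.46 CPM, a fall of 1.73 (SE 0.21, adjusted p = 0.0233 in edgeR's quasi-likelihood test), without overlap between the genotypes. Chgb stood at 31.1 and 39.6 counts per 100 Chga counts in the WT samples and at 37.7 and 43.5 in c-Myc transgenic mice, ranges that overlap, so the ratio of the granins was not separated between the genotypes.

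Ghrelin is the appetite-raising peptide of the X/A-like cells, and ghrelin O-acyltransferase, the product of Mboat4, attaches the fatty acid that ghrelin needs to activate its receptor. Ghrl (chr6:113716119-113719880, minus strand) had 19608 and 12431 counts in the WT samples and 4568 and 5982 in c-Myc transgenic mice. After normalisation the transgenic samples were nearly equal, at 134.7 and 133.9 CPM, and lay below the WT samples at 584 and 446 CPM. Ghrl fell by 1.94 on the log2 scale (SE 0.16, adjusted p = 0.0175 in edgeR's quasi-likelihood test), which is 3.83-fold. Mboat4 (chr8:34115030-34125182, plus strand) had 128 and 80 counts in the WT samples and 32 and 19 in c-Myc transgenic mice. The genotypes did not overlap, but the transgenic samples differed by 2.22-fold from each other and the log2 fold change of -2.29 (SE 0.52) had an adjusted p of 0.0601 in edgeR's quasi-likelihood test. Relative to its substrate, Mboat4 stood at 0.653 and 0.644 counts per 100 Ghrl counts in the WT samples and at 0.701 and 0.318 in c-Myc transgenic mice, and the ranges overlapped. DESeq2 called Mboat4 lower (adjusted p = 0.00178), and edgeR's quasi-likelihood test also called it with no filter on low counts (adjusted p = 0.0248), with at least 10 counts in every sample (0.0479) and without c-Myc transgenic replicate 1 (0.0435), where its log2 fold change was -2.96.

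Prohormone convertase 1/3, the product of Pcsk1, cuts hormone precursors inside the granule. Pcsk1 (chr13:75089826-75134861, plus strand) had 1300 and 745 counts in the WT samples and 217 and 297 in c-Myc transgenic mice. It went from 32.7 ± 8.51 to 6.52 ± 0.177 CPM, a fall of 2.33 on the log2 scale (SE 0.23, adjusted p = 0.0198 in edgeR's quasi-likelihood test). It was also low relative to the granins, at 4.35 and 5.58 counts per 100 Chga counts in the WT samples and 3.51 and 4.01 in c-Myc transgenic mice. Against Chgb the separation was clearer, with 14.01 and 14.09 Pcsk1 counts per 100 Chgb counts in the WT samples and 9.33 and 9.22 in c-Myc transgenic mice.

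Tryptophan hydroxylase 1, the product of Tph1, makes the first and rate-limiting step of serotonin synthesis outside the brain, in enterochromaffin cells and in mast cells. Tph1 (chr7:46644641-46672537, minus strand) had 780 and 747 counts in the WT samples and 321 and 494 in c-Myc transgenic mice. Tph1 and Nkx2-2 were lower in WT replicate 1 than in WT replicate 2 after normalisation, while the other 8 genes were higher there. From 25.01 ± 2.50 to 10.3 ± 1.13 CPM, it fell by 1.28 on the log2 scale (SE 0.16, adjusted p = 0.0251 in edgeR's quasi-likelihood test), the smallest change of the 5 genes that passed. Of 15 tested mast cell markers 6 were called higher and 1 lower, with a median log2 fold change of 1.89, and their summed level was 148 and 152 CPM in WT against 291 and 295 CPM in c-Myc transgenic mice. The mast cell protease genes Mcpt1 and Mcpt2 rose by 4.62 and 2.93 on the log2 scale and Fcer1a, a chain of the IgE receptor, by 2.46. Hdc was the marker called lower, and it is also a gene of the enterochromaffin-like cell. How much of the remaining Tph1 RNA came from mast cells was not tested.

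Neurog3 is the transient factor that commits progenitors to the endocrine lineage, Neurod1 acts after it in differentiation, and Nkx2-2 and Pax6 act in the choice of hormone. Neurod1 (chr2:79452521-79456751, minus strand) had 128 and 77 counts in the WT samples and 55 and 56 in c-Myc transgenic mice, with a log2 fold change of -1.19 (SE 0.36, adjusted p = 0.0974 in edgeR's quasi-likelihood test). Nkx2-2 (chr2:147177546-147194243, minus strand) had 107 and 98 counts in the WT samples and 58 and 72 in c-Myc transgenic mice, with a log2 fold change of -1.01 (SE 0.29, adjusted p = 0.0907 in the same test). Pax6 (chr2:105668900-105697364, plus strand) had 101 and 71 counts against 37 and 36, a log2 fold change of -1.55 (SE 0.36, adjusted p = 0.0624 in the same test). For these 3 genes the genotypes did not overlap after normalisation, and the adjusted p missed the threshold. DESeq2 called Neurod1 (adjusted p = 0.0479) and Pax6 (adjusted p = 0.012) lower and did not call Nkx2-2 (adjusted p = 0.0532). With at least 10 counts in every sample, edgeR's quasi-likelihood test also called Pax6 lower (adjusted p = 0.0455).

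Neurog3 (chr10:62133090-62134763, plus strand) had the lowest counts, 29 and 24 in WT and 21 and 18 in the c-Myc transgenic mice. The exact Poisson 95% intervals of these counts, which cover counting error only, ran from 15.4 to 41.6 in WT and from 10.7 to 32.1 in c-Myc transgenic mice and overlapped. Its log2 fold change of -0.76 (SE 0.45, adjusted p = 0.312 in edgeR's quasi-likelihood test) was the smallest of the 10 genes and did not pass the test.

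**Figure D2:**
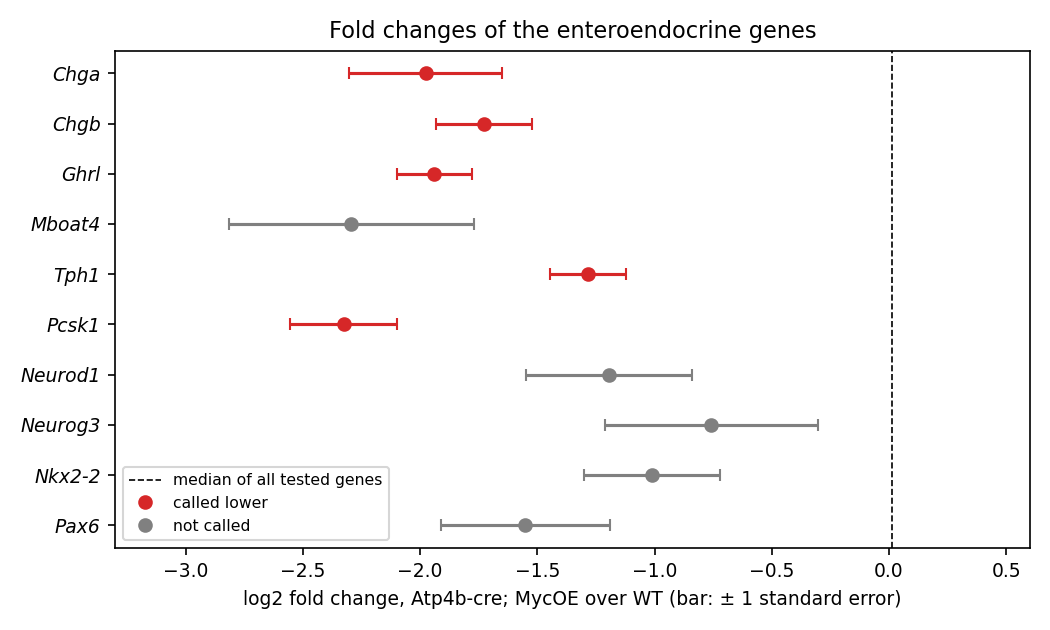
Log2 fold change of each of the 10 genes in Atp4b-cre; MycOE over WT stomach on the horizontal axis, with bars of 1 standard error and red points for genes called lower. All points lie left of the dashed median of all tested genes at 0.012, from -2.33 for Pcsk1 to -0.76 for Neurog3, and the 4 transcription factor genes are not called.

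Some rows share sequence with other genes, and whether counting used strand is not given in the sources used here, so antisense reads cannot be told apart. Neurod1 shares exon bases with Cerkl on the same strand, which had 33 and 23 counts in the WT samples and 82 and 112 in c-Myc transgenic mice, the opposite direction. Nkx2-2os had 3, 2, 0 and 0 counts and Pax6os1 1, 1, 0 and 1 over the 4 samples, at most 3 against at least 36 for Nkx2-2 and Pax6. Gm39158, which overlaps Mboat4, had 0 counts in all 4 samples. The genes that GENCODE places over Ghrl (Gm26982 and Gm44033), over Neurod1 (Gm26755) and over Neurog3 (Fam241b), all on the opposite strand, were not analysed here.

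Within a sample, a ratio of 2 counts does not depend on library scaling. Chga itself fell 3.93-fold, so a gene that fell less than Chga has a higher ratio to it: of the 17642 other tested genes, 87.3% had higher counts per 100 Chga counts in both transgenic samples than in both WT samples and 1.14% had lower ones, and the median gene's mean ratio was 3.63 times as high in the transgenic mice as in WT. Relative to Chga, the ranges of Chgb, Ghrl, Mboat4, Tph1 and Pax6 overlapped between the genotypes, with Ghrl at 65.6 and 93.1 counts per 100 Chga counts in the WT samples and 73.9 and 80.8 in c-Myc transgenic mice. Pcsk1 was lower in both transgenic samples, as given above. Neurod1 was higher, at 0.428 and 0.577 counts per 100 Chga counts in the WT samples and 0.890 and 0.756 in c-Myc transgenic mice. Nkx2-2 was also higher, at 0.358 and 0.734 against 0.939 and 0.973, and so was Neurog3, at 0.0971 and 0.180 against 0.340 and 0.243. The mean ratios of these 3 transcription factor genes to Chga were 1.64 to 2.11 times as high in c-Myc transgenic mice as in WT, which is below the 3.63 of the median gene, and their own log2 fold changes were below 0 as given above. Against Chgb in place of Chga the same 3 genes were higher without overlap and Pcsk1 was lower. Ghrl then also lay lower without overlap (211 and 235 counts per 100 Chgb counts against 196 and 186). Mboat4 did so only barely, at 1.379 and 1.513 counts per 100 Chgb counts in the WT samples against 1.375 and 0.590 in c-Myc transgenic mice. Chgb fell 3.31-fold, and per 100 Chgb counts 86.7% of the other tested genes were higher and 1.66% lower without overlap, with a median of 3.23 times the WT ratio. The ratios were not tested, and the Neurog3 ratio rests on 18 to 29 counts per sample.

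**Figure D3:**
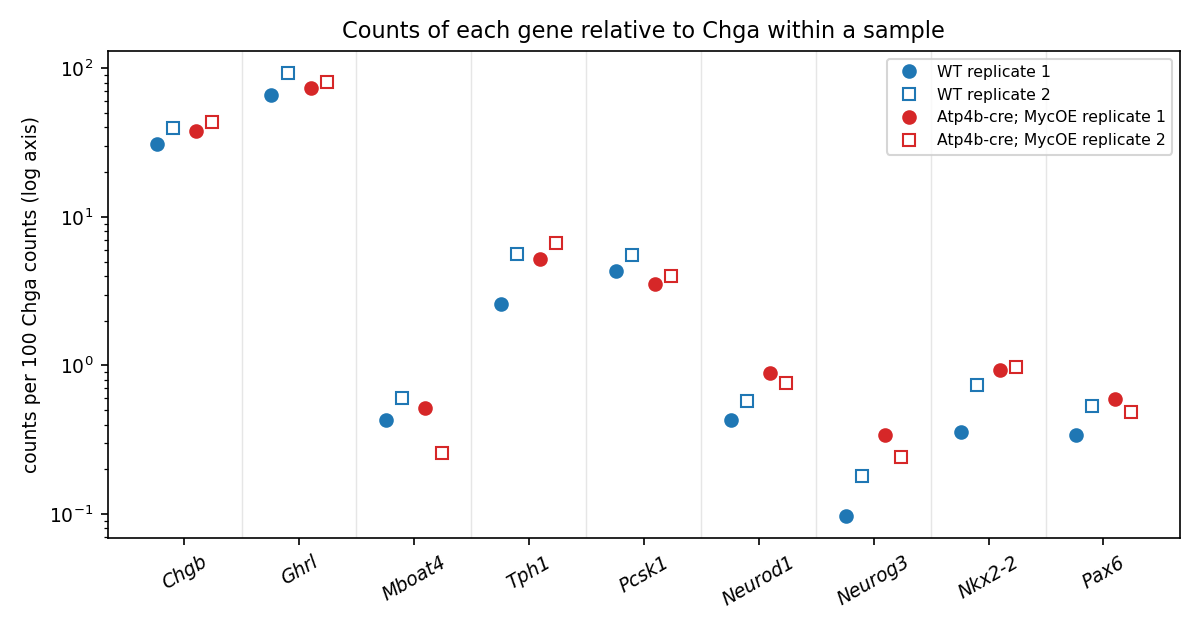
Counts of the other 9 genes per 100 Chga counts of the same sample, on a log axis, with WT in blue and Atp4b-cre; MycOE in red, circles for replicate 1 and open squares for replicate 2. Ghrl overlaps between the genotypes, Pcsk1 lies lower in red, and Neurod1, Neurog3 and Nkx2-2 lie higher in red, as do 87.3% of all other tested genes, since Chga itself fell 3.93-fold.

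Genes that work with these 10 were taken from 7 lists, written with earlier results of these data known. Of 113 tested genes, 28 were called lower and 5 higher, with a median log2 fold change of -0.45. Of all tested genes 5.08% were called lower and 5.65% higher. At an unadjusted p under 0.05 in edgeR's quasi-likelihood test 16.4% were lower and 17.7% higher. DESeq2 called 9.21% lower and 7.98% higher of all genes to which it gave an adjusted p. The list closest to the granins, granule and peptide processing genes, had 12 of 26 tested genes called lower and 0 higher, 24 of 26 below 0 and a median of -1.10. At an unadjusted p under 0.05 in edgeR's quasi-likelihood test 19 were lower and 0 higher, and DESeq2 called 17 lower and 0 higher. The largest falls of this list were those of Vgf, a granin-like neuropeptide precursor (347 and 141 counts in WT, 34 and 47 in c-Myc transgenic mice, log2 fold change -2.90, or -2.30 and not called without WT replicate 1), Pcsk2, the second granule convertase (1068 and 739 against 147 and 333, -2.30), and Syp, the vesicle protein synaptophysin (686 and 463 against 173 and 226, -1.87). Pcsk1 stood at 122 and 101 counts per 100 Pcsk2 counts in the WT samples and 148 and 89.2 in c-Myc transgenic mice, and the ranges of the convertases' ratio overlapped.

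Many granule genes are also neuronal. Of 18 tested enteric neuron markers 16 were not called, Chat had a log2 fold change of 2.46 and the other 17 lay below 0. The 2 called lower were Nefm, a neurofilament (log2 fold change -2.73), and Ret, a receptor of enteric neurons (-0.97), and the median of the 18 was -0.96. At an unadjusted p under 0.05 in edgeR's quasi-likelihood test 10 were lower and 1 higher, and DESeq2 called 6 lower and 0 higher. Their summed level, which was not tested, was 144 and 93.6 CPM in WT and 51.8 and 75.3 CPM in the c-Myc transgenic mice. Hand2, the neuron marker with the most counts, had 1050 and 518 counts against 429 and 765 and was not called. Of 8 glial markers 0 were called in either direction by edgeR's quasi-likelihood test, with 1 lower and 1 higher at an unadjusted p under 0.05 and 1 lower by DESeq2. The glial median was -0.56, with 6 of 8 below 0. The summed glial level was 170 and 179 CPM in WT and 213 and 229 CPM in the c-Myc transgenic mice, of which Erbb3, also made in epithelium, gave 134 and 156 CPM in WT and 199 and 207 CPM in the transgenic samples. The other 7 glial markers summed to 36.6 and 23.3 CPM in WT and 13.8 and 21.7 CPM in the transgenic samples, lower without overlap. The part of neuronal RNA in the granule genes was not tested.

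Among 16 tested genes for other gut hormones, 2 were called lower and 0 higher by edgeR's quasi-likelihood test, and the median was -0.51. At an unadjusted p under 0.05 there were 7 lower and 0 higher, and DESeq2 called 4 lower and 0 higher. Sst, the somatostatin gene of D cells, had 6576 and 4302 counts in the WT samples and 1082 and 1524 in c-Myc transgenic mice, with a log2 fold change of -2.41 (SE 0.15). Gcg, the proglucagon gene, had 291 and 189 counts against 106 and 114, a log2 fold change of -1.44 (SE 0.27). Of the 11 tested amine genes 3 were called lower, with a median of -0.20. They were Hdc, which makes histamine (log2 fold change -2.05), Slc18a2, which loads amines into vesicles (-1.23), and Maob, which breaks amines down (-1.12). Ddc, the second enzyme of serotonin synthesis, is made in many cell types, and Tph1 stood at 59.9 and 114 counts per 100 Ddc counts in the WT samples and 28.4 and 70.6 in c-Myc transgenic mice, with overlap.

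The list of further endocrine transcription factors was mixed, with 4 of 24 called lower, 2 higher and a median of -0.37. Insm1, which acts beside Neurod1 in endocrine differentiation, had 205 and 129 counts in the WT samples and 55 and 93 in c-Myc transgenic mice, with a log2 fold change of -1.53 (SE 0.31, adjusted p = 0.04995 in edgeR's quasi-likelihood test). Isl1 fell by 0.88, and the factors Foxa2 and Nkx6-3, which are also made in other gastric epithelial cells, fell by 1.91 and 1.16 on the log2 scale. Foxa1 and Sox4, which are made in many epithelial cells, rose by 0.72 and 1.03. Of 18 tested genes of the Notch pathway, which restrains endocrine fate, 0 were called lower and 1 higher, with a median of 0.096, and the counts were the same at an unadjusted p under 0.05 and by DESeq2. That gene was the Notch target Hes1, with 1384 and 1329 counts in the WT samples and 2352 and 3433 in c-Myc transgenic mice and a log2 fold change of 0.72 (SE 0.11). The 1 of 18 Notch genes called higher stood beside 5.65% of all tested genes called higher.

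The ghrelin receptor gene Ghsr had 0 counts in all 4 samples and was not tested. Of 10 tested genes for the regulation of ghrelin cells, 4 were called lower and 1 higher, with a median of -1.03. The receptor genes Cckar, Sstr2 and Hcar1 fell, with log2 fold changes of -3.14, -2.47 and -2.23, as did the nuclear receptor gene Esrrg, which is abundant in parietal cells, with -4.01. Ffar4, the long-chain fatty acid receptor, rose by 3.20, from 122 and 117 counts to 1114 and 1756. Of 9 tested enteroendocrine receptor and channel genes 3 were called lower and 1 higher, with a median of -0.41. Gper1, Casr and Sctr, which encode receptors for estrogen, calcium and secretin, fell, with log2 fold changes of -2.79, -2.14 and -0.93, and Abcc8, the subunit of a potassium channel, rose by 1.77, opposite to the 10 genes. These receptors are made in other gastric cells as well, so their counts are not specific to endocrine cells.

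**Figure D4:**
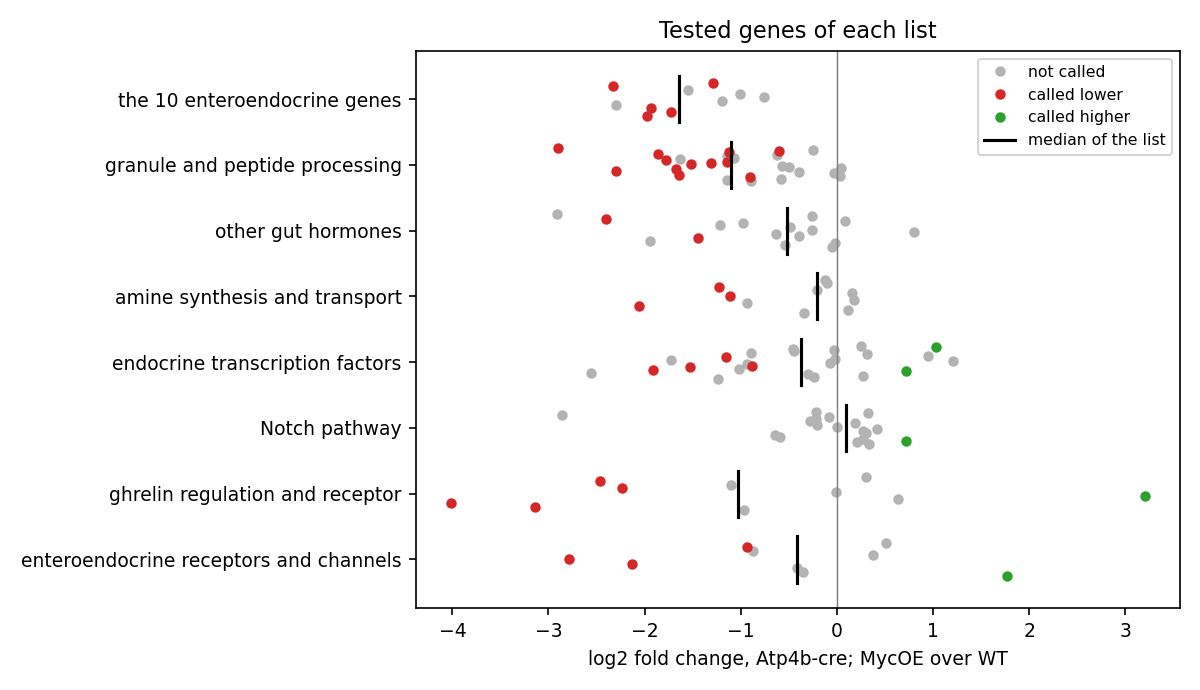
Log2 fold changes of the tested genes in each list, with Atp4b-cre; MycOE over WT on the horizontal axis, 1 point per gene, red for called lower, green for called higher, grey for not called and a black bar for the median of the list. Among the 8 lists drawn, the 10 enteroendocrine genes have the lowest median, -1.64, ahead of granule and peptide processing at -1.10, and the Notch pathway lies nearest to 0 at 0.096.

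Other cells also differed between the samples. Parietal cell markers had 11 of 11 genes called lower with a median of -3.81, and chief cell markers 5 of 6 with a median of -3.34. Pancreatic-type acinar genes had 6 of 14 called lower, Pla2g1b the most by counts with a log2 fold change of -8.84, while Cpa1 and Prss2 were at 0 in all 4 samples. Tuft cell markers, of another chemosensory cell type, had 4 of 7 called higher, with a median of 1.91. Squamous forestomach markers summed to 8255 CPM in c-Myc transgenic replicate 2, against 2648 to 4076 CPM in the other 3 samples. Markers of intestine summed to 273 CPM in the same sample, against 1171 to 1859 CPM in the others. Apoa1 had the most counts of this list, with 943 and 1008 CPM in WT and 261 and 23.7 CPM in c-Myc transgenic mice. Apart from Apoa1, Cdx2 and Nts, each intestinal marker was higher in replicate 1 than in replicate 2 of both genotypes. The antral hormone gene Gast had 13281 and 6258 counts in the WT samples and 1866 and 4749 in c-Myc transgenic mice and was not called (adjusted p = 0.0602 in edgeR's quasi-likelihood test). Of 5 antrum markers 4 lay below 0 and 1, Nkx6-3, was called lower. Tff2, the antrum marker with the most counts, had a log2 fold change of 0.53 and was not called. It stood at 5526 and 6472 CPM in the WT samples and 12341 and 5000 CPM in c-Myc transgenic mice. The part of these differences in the levels of the 10 genes was not tested. Without c-Myc transgenic replicate 2, edgeR's quasi-likelihood test called Chgb, Ghrl, Tph1 and Pcsk1 lower and did not call Chga (adjusted p = 0.0582), with 7.69% of all tested genes called lower.

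**Figure D5:**
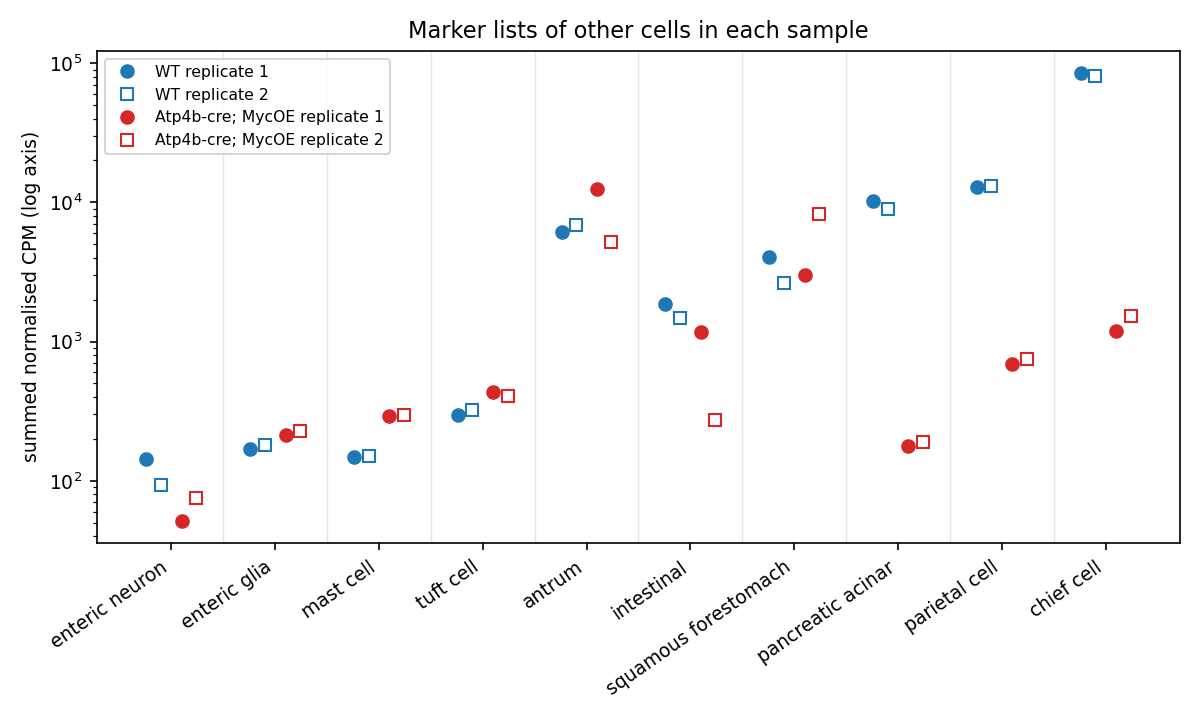
Summed normalised CPM of marker lists for other cells in each sample, on a log axis, with WT in blue and Atp4b-cre; MycOE in red, circles for replicate 1 and open squares for replicate 2. Parietal, chief and acinar-type markers are low in both red samples, the summed neuron markers lie lower and the summed mast cell and tuft cell markers higher in both red samples without a test of the sums, and replicate 2 of the Atp4b-cre; MycOE mice is high for squamous and low for intestinal markers. For intestinal markers WT replicate 2 also lies below WT replicate 1.

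Leaving out each sample in turn kept all 10 genes below 0, but changed the calls. Without WT replicate 1 or WT replicate 2, 0 of the 10 genes and 0 genes in all were called by edgeR's quasi-likelihood test, and the lowest adjusted p among the 10 genes was 0.196 and 0.232. At an unadjusted p under 0.05, 5 and 8 of the 10 genes were then lower, as were 9.49% and 8.35% of all genes tested. Chga was also not called without c-Myc transgenic replicate 1 (adjusted p = 0.0597) or replicate 2 (adjusted p = 0.0582). Its log2 fold change was -1.46 without WT replicate 1 and -2.36 without WT replicate 2. Of the list genes named above, Gcg, Vgf, Slc18a2, Insm1 and Hcar1 were not called by edgeR's quasi-likelihood test when either one of the transgenic samples was left out, Hdc, Isl1 and Casr were not called without replicate 1, and Sctr was not called without replicate 2, with adjusted p from 0.0513 to 0.0935.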

How the data were processed

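RNA of stomachs was sequenced, and the authors deposited raw counts per gene symbol in 1 table without normalization. The submitters' processing notes name HISAT2 and mm10. The counting tool and annotation are not given in the sources used here. The authors' own comparison used DESeq2.

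Both c-Myc transgenic columns were re-sorted as described in the text. The quasi-likelihood test of edgeR 4.0.16 (R 4.3.3) was then applied to the counts, with TMM factors, the filterByExpr filter and no covariates, after a check on simulated counts. P-values were adjusted over all tested genes by the Benjamini-Hochberg method. Calls needed an adjusted p under 0.05 together with a log2 fold change beyond 0.585 (1.5-fold) in either direction. SDs are over 2 samples. Replicates differed by more than counting noise (chi-square per degree of freedom 28.9 in WT, 97.9 in c-Myc transgenic mice). The labels do not say from how many animals each sample came, so p-values measure only the spread between these samples. The design text speaks of triplicates, and 2 samples per genotype were analysed here.

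The 10 genes and all lists were chosen with earlier results of these data known. From each list every called gene was named, or where over 6 were called the 3 largest rises and falls. From marker lists the gene with the most counts and up to 3 called genes could be named. Gast, Ddc, Chat, Ghsr, Ins1, Ins2, G6pc2, Cpa1, Prss2, Cdx2 and Nts were named outside this rule, after their values were seen. Alternatives were the table as deposited, DESeq2 1.42.0 and its size factors, library size only, a block for the replicate number, no filter on low counts, a minimum of 10 counts in each sample, other fold thresholds, leaving out each sample, and ratios to Chgb.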

Additional observations from a re-analysis of the deposited data

How the results depend on the processing

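In the table as deposited, 18580 of 22083 genes were called (9422 higher, 9158 lower), with 3 of the 10 genes higher (Mboat4, Neurog3 and Pax6), 5 lower (Chga, Chgb, Ghrl, Pcsk1 and Neurod1) and, among the genes of the 7 lists, 47 higher and 57 lower. There the log2 fold changes of Mboat4 (5.05), Tph1 (0.46), Neurog3 (5.94), Nkx2-2 (0.73), Pax6 (2.60), Slc18a2 (1.88), Foxa2 (0.28), Foxa1 (-3.69), Hes1 (-4.38), Sstr2 (0.52), Ffar4 (-1.72), Casr (3.70), Sctr (1.09) and Abcc8 (-11.04) were reversed, because the counts stand under other names. DESeq2 called 3224 genes (1727 lower) and 8 of the 10 genes lower. A minimum of 10 counts in every sample called 7 of the 10 genes lower (5.92% of all tested genes), and no filter called 6 (4.83%). Library size only called 3011 genes and moved the median of all genes from 0.012 to 0.235, with 75.5% of calls higher against 52.6%, the 10 genes stayed below 0, and Insm1 and Slc18a2 were no longer called (adjusted p = 0.0519 and 0.0522). With the replicate block, 114 genes were called, 0 of the 10 genes (adjusted p from 0.0532 to 0.412, 8 of them lower at an unadjusted p under 0.05, as were 14.6% of all tested genes), and 1 higher and 4 lower among the list genes. Over all tested genes the replicate differences of the genotypes correlated at r = 0.064, which says little about smaller groups of genes. The summed intestinal markers were higher in replicate 1 than in replicate 2 of both genotypes (1859 against 1489 CPM in WT, 1171 against 273 CPM in c-Myc transgenic mice). The labels do not say whether samples with the same replicate number share anything else. A log2 fold change above 1 left 1113 genes and 3 higher list genes. Leaving out 1 sample gave 0 to 2470 genes called, 0 to 5 of the 10 genes lower, and 0 to 7 list genes higher and 0 to 22 lower (17 without c-Myc transgenic replicate 1). An arm of 1 sample is assumed to vary like the other. The cause of these changes was not tested. Apart from the deposited table, all 10 genes were below 0 under every alternative run, and no ratio changed direction with Chgb in place of Chga. Ghrl went from overlap between the genotypes to lower. Mboat4 did so only barely, with 1.375 in c-Myc transgenic replicate 1 against 1.379 counts per 100 Chgb counts in WT replicate 1. The 18 to 29 counts of Neurog3 and 19 to 128 of Mboat4 limit what these libraries can show.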
